A study of Mus musculus with 9 samples.

Results

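The 6 mature miRNA arms of 3 hairpins that lie inside imprinted genes were followed in the tibialis anterior (TA) muscle of mice with Lewis Lung Carcinoma (LLC) cachexia: both arms of miR-335 (host gene Mest), miR-483 (host gene Igf2) and miR-675 (host gene H19). They were chosen by name and host locus, and are 6 of 1915 mature miRNAs that were counted. The small RNA libraries came from 4 control mice (C1 to C4) and 5 LLC mice (L1, L2, L3, L5 and L6). The control mice were injected with PBS, and the LLC mice with 750000 LLC cells in each flank. The study left out L4, whose sample failed its quality filters. LLC is a mouse lung carcinoma line that grows as a tumor under the skin, and the muscles were taken 22 days after the injection. The sample labels name C57BL/6J mice of 10 weeks, while the series description and the study's methods name male C57BL/10 mice of 8 weeks. No mouse carried a transgene or deletion by these labels. Each library is 1 mouse.

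In an imprinted gene the copy inherited from one parent is silenced. Mest and Igf2 are expressed from the paternal copy, whereas the noncoding RNA H19 is expressed from the maternal copy of the locus it shares with Igf2. Igf2 is a growth factor of the embryo and of forming muscle, and H19 is abundant in fetal and regenerating muscle. A hairpin cut by Dicer yields a 5p and a 3p arm, and the arm that is loaded into Argonaute pairs with target mRNAs mainly through its seed, bases 2 to 8.

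The 6 mature sequences, credited to RefSeq on GRCm38.p6, are given 5′ to 3′ with the seed in capitals, because the arms differ in every seed and are therefore counted and read as separate miRNAs.
mmu-miR-335-5p: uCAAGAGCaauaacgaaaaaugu
mmu-miR-335-3p: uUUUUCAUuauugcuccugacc
mmu-miR-483-5p: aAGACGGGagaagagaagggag
mmu-miR-483-3p: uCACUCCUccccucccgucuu
mmu-miR-675-5p: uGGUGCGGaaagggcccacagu
mmu-miR-675-3p: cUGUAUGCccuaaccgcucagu
All 6 names matched the RefSeq table, which holds 1679 mature names, 1623 of them also in the count tables. The 6 seeds are distinct, and 0 other mature miRNAs of that table share a seed or the first 8 bases with any of them. The mapping required the first 8 bases of a read to match without mismatch. The arms are 21 to 23 bases long, so their CPM (counts scaled to library size) were compared without a length correction. CPM include the TMM normalization factors, except for the floor of detection, the order of the 6 arms and the levels and ratios of the miR-483 and miR-675 arms, which are on library totals. The arms of miR-335 hold few G and C bases, 30.4% in the 5p arm and 36.4% in the 3p arm, against 54.5 to 63.6% in the arms of the other hairpins.

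On GRCm38, Mir335 lies on the plus strand at chr6:30741299-30741396, inside Mest (chr6:30723547-30748465). In GENCODE M21 it is intronic in 7 of the 11 Mest transcripts and outside the other 4. Mir483 lies on the minus strand at chr7:142654924-142654996, inside Igf2 (chr7:142650766-142666816), and is intronic in 7 of 9 transcripts. Mir675 lies on the minus strand at chr7:142577064-142577147, inside H19 (chr7:142575529-142578143). It lies within an exon in 3 of 7 H19 transcripts, within an intron in 1 and outside 3. Mir675 and Mir483 are 77776 bases apart on the same strand.

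The total count per library was 4992339 to 6548379 in control mice and 6216566 to 7833161 in LLC mice. The floor of detection was set at 3 counts, worth 0.383 to 0.601 CPM by library. This floor and the counting intervals below cover counting error only, since the reads carry no molecular identifiers and need not stand for separate molecules. The muscle label was checked against 6 muscle miRNAs. miR-486a-5p was the most abundant of them, at 66714 CPM in control mice and 76375 CPM in LLC mice, miR-133a-3p had 20321 and 18718 CPM, and miR-133b-3p had 4619 and 4187 CPM. The other 3 had few counts. miR-1a-3p, a main miRNA of muscle fibres, had 20.9 and 17.4 CPM. Over all libraries it had 1113 counts, against 1160594 for miR-133a-3p. miR-499-5p had 5.26 and 3.72 CPM, and miR-206-3p had 5 counts in all libraries together. A low count here need not stand for a low level in the muscle, for the 6 arms as well. The cause was not tested. A whole muscle holds several cell types, and fewer cells of a type cannot be told apart from less RNA per cell.

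Only the miR-335 arms were expressed at a level that allowed a comparison of the groups. Expression was defined as more than 32 counts in at least 1 library, which 304 miRNAs reached, 2 of them among the 6 arms. The order of the mean levels over the 9 libraries, in CPM before normalization factors, was miR-335-5p (79.5 ± 24.6, SD), miR-335-3p (19.3 ± 3.92), miR-675-3p (0.645 ± 0.373), miR-483-5p (0.610 ± 0.326), miR-483-3p (0.0656 ± 0.130) and miR-675-5p (0.0158 ± 0.0475). miR-335-5p exceeded miR-335-3p, and miR-335-3p exceeded miR-675-3p, in 9 of 9 libraries. Between miR-675-3p and miR-483-5p no order was found, with 4 libraries each way and 1 tie, and a mean difference of 0.035 ± 0.563 CPM. miR-483-5p exceeded miR-483-3p in 9 of 9 libraries. The last 2 arms were tied at 0 counts in 7 of 9.

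miR-335-5p, an arm studied in tumor metastasis and in stromal cells, had a lower mean in LLC mice that did not pass the threshold. Its level after TMM normalization was 81.1 CPM in C1, 99.9 in C2, 86.9 in C3 and 89.5 in C4. In the LLC mice it was 54.4 CPM in L1, 88.9 in L2, 83.8 in L3, 45.2 in L5 and 66.8 in L6. The groups overlapped: L1, L5 and L6 lay below every control mouse, while L2 and L3 lay within the control range. Having at least 3 LLC mice below all control mice was a property of 25% of the 304 expressed miRNAs, whereas fully separate groups were found for 5.92% (4.28% with LLC lower) and for neither miR-335 arm. The mean was 89.4 ± 7.84 CPM (SD, n = 4) in control mice and 67.8 ± 18.7 CPM (SD, n = 5) in LLC mice.

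In edgeR's quasi-likelihood test across the 304 expressed miRNAs, the log2-fold change of miR-335-5p was -0.40 (standard error 0.178, adjusted p = 0.293 after Benjamini-Hochberg adjustment). Its unadjusted p was 0.0422. A two-sided exact permutation test, which regroups the 9 mice in every possible way, gave p = 0.0873, and 0.402 when adjusted over the 304 miRNAs. The smallest p this test allows is 0.00794. Of the 2 arms tested, 0 passed an adjusted p of at most 0.05 with a 1.5-fold change, as did 0% of the 304 expressed miRNAs with edgeR. Across the 304, an unadjusted p of at most 0.05 was found for 50, or 16.4%. The adjusted threshold was passed by 8 miRNAs with DESeq2 (2.8% of those with an adjusted p), 0 with limma and 8 with edgeR when L3 was left out, and neither miR-335 arm was among them.

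**Figure D1:**
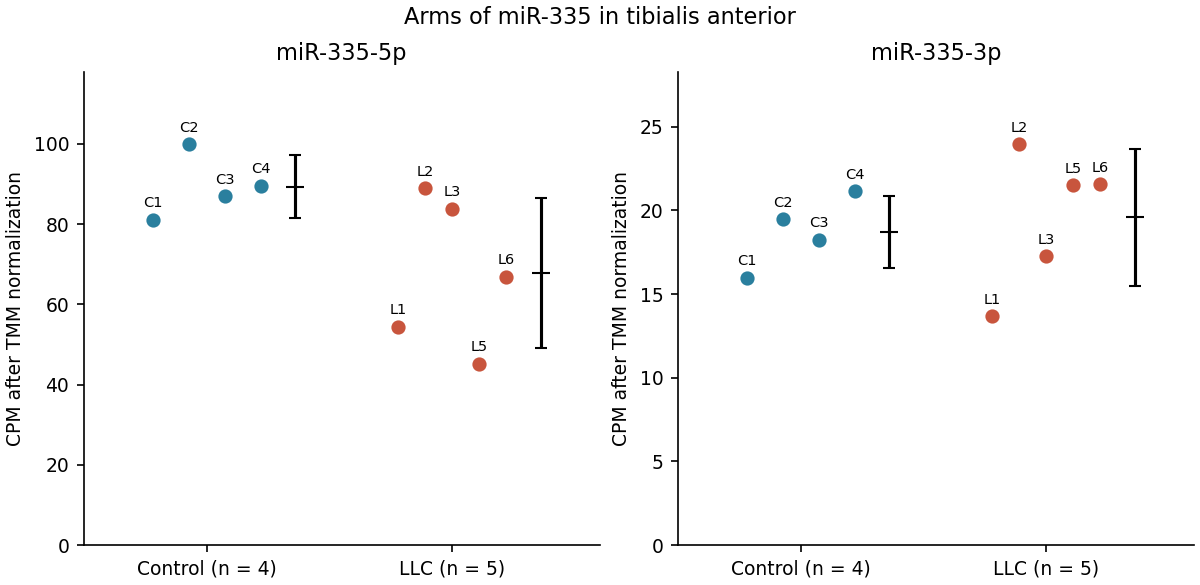
CPM after TMM normalization of miR-335-5p (left) and miR-335-3p (right) in each mouse, labelled C1 to C4 (control) and L1 to L6 (LLC); the bar beside each group is the mean with its SD. For miR-335-5p, L1, L5 and L6 lie below the control mice, and for miR-335-3p the LLC mice spread on both sides of them.

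The other arm of the same hairpin, miR-335-3p, did not differ beyond the spread between mice. It had 16.0, 19.5, 18.2 and 21.1 CPM in C1 to C4. In L1, L2, L3, L5 and L6 it had 13.7, 23.9, 17.3, 21.5 and 21.6 CPM. L1 was below all control mice and L2, L5 and L6 were above them. The means were 18.7 ± 2.17 CPM (SD, n = 4) and 19.6 ± 4.09 CPM (SD, n = 5). In edgeR's test the log2-fold change of this arm was 0.07 with a standard error of 0.178 (adjusted p = 0.829), with a sign that reversed with library totals alone (-0.07) and without L2 (-0.012). A 95% interval for it, from the standard error, ran from -0.28 to 0.42.

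The counting error of both arms is set beside the spread between mice, which also holds the differences between animals. miR-335-5p had 229 counts in L5 and 322 to 754 in the other libraries, and counting error alone gives a coefficient of variation of 3.64 to 6.61%. The observed coefficient of variation was 8.77% in control mice and 27.5% in LLC mice. miR-335-3p had 81 to 188 counts, a counting error of 7.29 to 11.1%, and observed values of 11.6% in control mice, near the counting error, and 20.9% in LLC mice. On the log2 CPM scale the SD of miR-335-5p was 0.12 in control mice, above 22.0% of the expressed miRNAs, and 0.41 in LLC mice, above 79.6% of them. The median SD over the expressed miRNAs was 0.20 in the control and 0.27 in LLC mice.

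The hairpin from which both arms are cut is printed next, 5′ to 3′, from RefSeq on GRCm38.p6 (plus strand, chr6:30741299-30741396) with the 5p and the 3p arm in capitals, because the ratio of these arms within a library does not depend on how libraries are scaled.
Mir335: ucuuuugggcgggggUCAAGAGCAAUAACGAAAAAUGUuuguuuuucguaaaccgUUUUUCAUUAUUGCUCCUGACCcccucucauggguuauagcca
The 5p arm was the more abundant in 9 of 9 libraries. For each count of the 3p arm there were 5.08 counts of the 5p arm in C1, 5.13 in C2, 4.77 in C3 and 4.23 in C4. In the LLC mice there were 3.98 in L1, 3.71 in L2, 4.85 in L3, 2.10 in L5 and 3.10 in L6. All LLC mice but L3 lay below the lowest control mouse, and L3 lay within the control range. Of the 74 hairpins with both arms expressed and counted in each library, 10.8% had at least 4 LLC mice below all control mice, and 1.35% had groups that did not overlap. The mean ratio was 4.80 ± 0.411 (SD, n = 4) in control mice and 3.55 ± 1.03 (SD, n = 5) in LLC mice.

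The difference of the mean log2 ratios, LLC minus control, was -0.49 (standard error 0.213; two-sided exact permutation test, p = 0.0635). Leaving out L3 changed the side of the 0.05 threshold, with a difference of -0.61 and p = 0.0286 in the exact permutation test. L3 is the only LLC mouse within the control range, so without it the groups do not overlap. The p is then the smallest that the test allows, and no conclusion is drawn from this crossing. Leaving out L5, the mouse with the lowest ratio, brought the difference to -0.31 (exact permutation p = 0.0857). Under the replicate block, over 3 pairs, it was -0.26 (exact p = 0.5). Across the 74 hairpins the differences ran from -0.96 to 0.95 with a median of -0.05, and that of miR-335 was the 9th lowest and the 21st in size. An unadjusted p of at most 0.05 was found for 6 of them, or 8.11%, and after adjustment over the 74 the value for miR-335 was 0.343 in the exact permutation test.

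**Figure D2:**
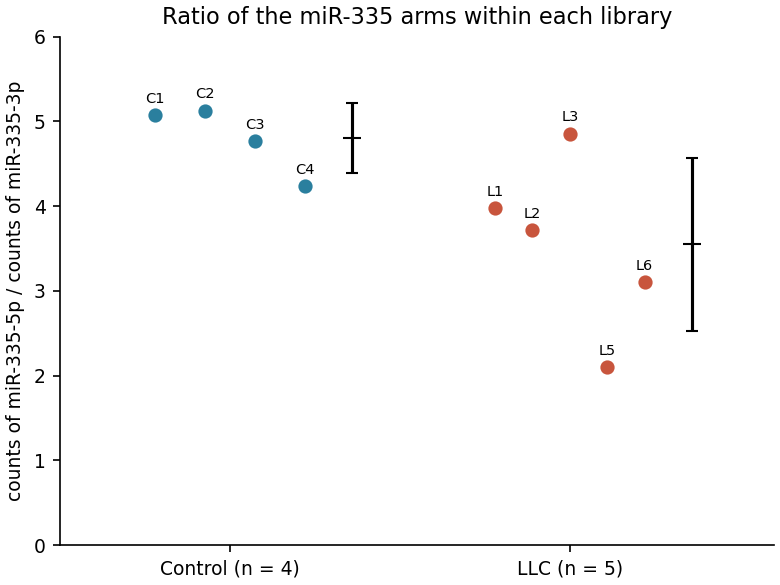
Counts of miR-335-5p divided by counts of miR-335-3p in each library of the control (C) and LLC (L) mice, with the mean and SD beside each group. The control mice lie between 4.23 and 5.13, and 4 of the 5 LLC mice lie below them.

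Among the 304 expressed miRNAs, miR-335-5p ranked 115th in mean CPM and miR-335-3p 189th. The neighbours of miR-335-5p in that order were miR-872-3p (86.4 CPM) and miR-676-3p (77.1 CPM), with log2-fold changes of -0.037 each. Those of miR-335-3p were miR-501-3p (19.4 CPM) and the muscle miRNA miR-1a-3p (18.96 CPM), with log2-fold changes of -0.023 and -0.26. None of these neighbours had an adjusted p below 0.521 in edgeR's test.

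The miRNAs whose log2 CPM across the 9 libraries was most like that of miR-335-5p were miR-126b-5p (Pearson r = 0.96), miR-16-5p (r = 0.95) and miR-126a-3p (r = 0.95). The miR-126a hairpin lies in the endothelial gene Egfl7. The entries of miR-126a and miR-126b need not be separate signals, since all best alignments of a read were kept. For example, miR-126b-3p and miR-126a-5p had nearly the same level in control mice, 26721 and 26719 CPM. All points share library, depth and normalization factor, so r is given as a description. The other arm of the hairpin, miR-335-3p, had r = 0.17 with miR-335-5p and stood 148th of 303. For miR-335-3p the most alike were miR-193b-3p (r = 0.74), miR-185-5p (r = 0.73) and miR-615-3p (r = 0.72).

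The markers of other cell types are set beside these values. Of the 2 endothelial markers, miR-126a-3p had 2867 CPM in control mice and 2312 CPM in LLC mice. Its log2-fold change was -0.31 (unadjusted p = 0.0331 and adjusted p = 0.284 in edgeR's test). The more abundant miR-126a-5p had 26719 and 25146 CPM. The summed endothelial level was 26211 to 33929 CPM in the control mice and 24162 to 29972 CPM in the LLC mice, and neither marker was at 0. For the 3 erythroid markers the summed level was 259 ± 49.3 CPM (SD, n = 4) and 152 ± 53.2 CPM (SD, n = 5). The most abundant was miR-451a with 167 and 98.7 CPM. All 3 had an unadjusted p of at most 0.05 in edgeR's test, against 16.4% of the 304 expressed miRNAs. As 2 of them are arms of the same hairpin, they are not 3 separate measurements. By mouse this erythroid sum was 325, 267, 228 and 215 CPM in C1 to C4 and 92.4, 189, 220, 110 and 150 CPM in L1, L2, L3, L5 and L6. L1 and L5 were thus the lowest mice in the erythroid sum and in miR-335-5p. Of 5 leukocyte markers, 2 had an unadjusted p of at most 0.05 in that test, against the same 16.4% of the 304. These 2 went opposite ways. The log2-fold change was -0.38 for the lymphocyte miRNA miR-150-5p (492 and 377 CPM) and 0.70 for the myeloid miRNA miR-223-3p (20.8 and 33.9 CPM). The median over the 5 was 0.067, while their sum, of which miR-150-5p is the largest share, was 764 ± 49.7 CPM and 671 ± 62.2 CPM. The fibroblast sum of 3 markers, nearly all miR-199a-3p (1894 and 2005 CPM), was highest in L5, at 3300 CPM against 1759 to 2371 CPM in the other mice. The other 2 fibroblast markers had lower means in LLC mice. In edgeR's test the log2-fold change was -0.33 for miR-199a-5p (unadjusted p = 0.0148, adjusted p = 0.214). It was -0.26 for miR-214-3p (unadjusted p = 0.0992, adjusted p = 0.335). The smooth muscle sum of 2 markers was 54997 ± 6957 and 69091 ± 16207 CPM, of which miR-143-3p had 53250 and 67463 CPM and miR-145a-5p 1747 and 1628 CPM. The 6 epithelial markers and the hepatocyte marker miR-122-5p were not expressed, with sums of at most 7.09 and 0.132 CPM in any mouse. None of these markers passed the adjusted threshold, and their part in the miR-335 values was not tested. L5 also had the lowest normalization factor, 0.762, and without it the log2-fold change of miR-335-5p was -0.28.

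The counts of the miR-483 and miR-675 arms were at or near the floor of detection in control and LLC libraries alike. miR-483-5p, the arm from the Igf2 intron that was counted in each library, had 3, 5, 1 and 5 counts in C1 to C4. In L1, L2, L3, L5 and L6 it had 3, 2, 3, 5 and 9 counts. At least 3 counts were reached in 7 of 9 libraries, and the groups overlapped. The levels on library totals, the scale of the floor, were 0.599 ± 0.362 CPM (SD, n = 4) and 0.619 ± 0.337 CPM (SD, n = 5). From 14 pooled counts in control mice and 22 in LLC mice, the ratio of LLC to control was 1.09 (95% exact counting interval 0.534 to 2.31).

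miR-675-3p, cut from H19 and known from differentiating muscle cells, had 3, 6, 5 and 2 counts in C1 to C4. In L1, L2, L3, L5 and L6 it had 2, 7, 7, 0 and 6 counts. L5 had none, where 3 counts would be worth 0.451 CPM on library totals, and the LLC mice lay on both sides of the control mice. The means on the same scale were 0.656 ± 0.262 CPM (SD, n = 4) and 0.637 ± 0.476 CPM (SD, n = 5), and the ratio of LLC to control from 16 and 22 pooled counts was 0.955 (95% exact counting interval 0.479 to 1.95). With these intervals, a 1.5-fold difference in either direction was not detectable at this depth for either arm.

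The partner arms were nearly absent from the counts. miR-483-3p, an arm linked to adipocytes and nutrition in other tissues, had 2 counts in C2, 2 counts in L3 and 0 in the other 7 libraries. miR-675-5p had 1 count in L3 and 0 in the other 8 libraries. No library reached 3 counts of either arm, so no fold change is given. For miR-483 the 5p arm was the one detected, and for miR-675 the 3p arm, which exceeded miR-675-5p in 8 libraries and was tied with it at 0 in L5.

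**Figure D3:**
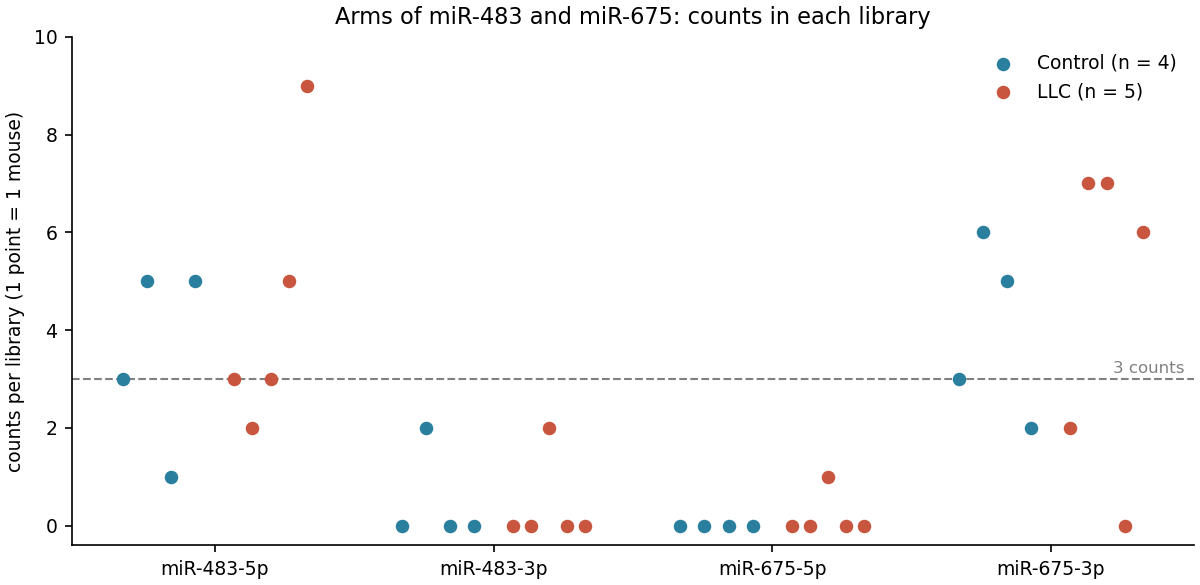
Counts of the arms of miR-483 and miR-675 in each library (1 point is 1 mouse, control left and LLC right of each tick), with a dashed line at 3 counts. miR-483-5p reaches at most 9 counts and miR-675-3p at most 7, while miR-483-3p and miR-675-5p stay below the line in all 9 libraries.

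Tested without a filter on low counts, over all 932 miRNAs with at least 1 count, none of the 4 low arms passed. In edgeR's test the log2-fold change was 0.29 for miR-483-5p (standard error 0.592, adjusted p = 0.871) and 0.10 for miR-675-3p (standard error 0.572, adjusted p = 0.933). The exact permutation test gave p = 0.683 for miR-483-5p and p = 0.810 for miR-675-3p, two-sided, and 1.0 for each after adjustment over the 932. In the same fit 22 of the 932 miRNAs, or 2.36%, passed the adjusted threshold with a 1.5-fold change, and none of the 6 arms was among them. miR-335-5p had a log2-fold change of -0.36 there (adjusted p = 0.325).

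The miRNAs of the other imprinted loci gave the wider setting. Between Dlk1 and Dio3 on chromosome 12, a domain whose miRNAs are expressed from the maternal copy, 38 of 113 listed mature miRNAs were expressed. Of these, 27 had a log2-fold change below 0 and 11 above, with a median of -0.26, against 53.6% below 0 and a median of -0.023 for the 304 expressed miRNAs. With library totals alone the median of the 304 was -0.17. An unadjusted p of at most 0.05 was found for 12 lower and 1 higher of the 38, against 11.2% and 5.26% of the 304. The adjusted threshold was passed by 0, the smallest adjusted p being 0.163 in edgeR's test. Many of the 38 are arms of the same hairpin, so these counts are not counts of separate members.

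The most abundant of the domain, miR-127-3p, whose hairpin lies antisense to the imprinted gene Rtl1, had 4444 ± 134 CPM (SD, n = 4) and 3454 ± 585 CPM (SD, n = 5), a log2-fold change of -0.36 (adjusted p = 0.214 in edgeR's test). The lowest log2-fold change of the domain was -0.87 for miR-379-3p, which exceeded 32 counts only in a control library (36 counts, against at most 17 in LLC mice). Of the 38 arms, 2 passed the filter only through control mice and 3 only through LLC mice, and the other 33 had a median of -0.26. The highest log2-fold change was 0.62 for miR-382-5p. At the Gnas locus 1 of 4 listed arms was expressed, miR-298-5p, with 4.51 ± 0.930 CPM (SD, n = 4) and 3.94 ± 1.33 CPM (SD, n = 5). Inside Sfmbt2, an imprinted gene with a large miRNA cluster in an intron, 0 of 69 listed mature miRNAs were expressed, and 31 had at least 1 count.

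**Figure D4:**
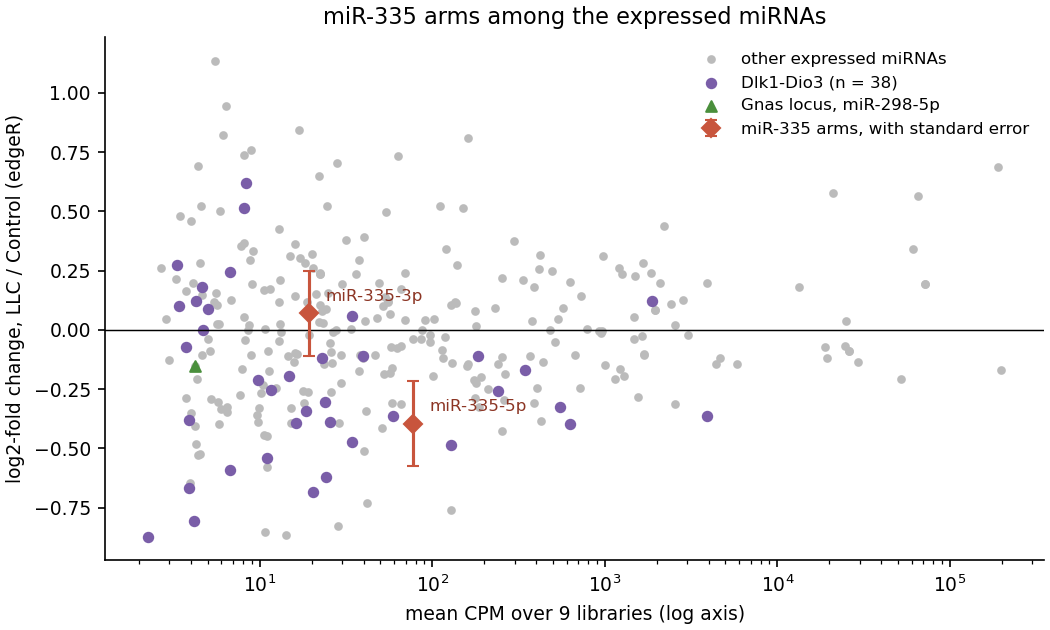
Log2-fold change (LLC against control, edgeR) against mean CPM over the 9 libraries on a log axis for the 304 expressed miRNAs, with the 38 of the Dlk1-Dio3 domain, miR-298-5p of the Gnas locus and the miR-335 arms marked; the bars on the miR-335 arms are standard errors. miR-335-5p lies at -0.40 and miR-335-3p at 0.07, both within the range of the expressed miRNAs.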

How the data were processed

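The authors prepared small RNA libraries with the TruSeq kit, sequenced them in 1 lane, and mapped the reads to miRBase 21 with Bowtie, with 0 mismatches in the first 8 bases and all best alignments kept. The authors deposited 1 table per mouse, with whole, unscaled counts for each mature miRNA and no filter. Groups came from the sample titles. Counts were analysed with R 4.3.3 and edgeR 4.0.16 on the miRNAs that exceeded 32 counts in any library, with TMM factors and library sizes over all miRNAs. Standard errors were derived from the fold change and its F statistic. DESeq2 1.42.0, limma 3.58.1, other scalings and filters, a replicate block and leaving out each mouse were alternatives. Single miRNAs were also tested by exact permutation of log2 CPM (prior count 2). Low arms have 95% exact counting intervals. The tests were checked on simulated data. There the main edgeR call found 43 of 118 simulated 1.5-fold changes (36.4%) and 105 of 110 simulated 2-fold changes (95.5%). Many changes near 1.5-fold would thus be missed. Within each group no library was a copy of another (lowest chi-square per degree of freedom 123.6).

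The arms and lists were chosen with earlier results of these data known. Named beyond the 6 arms were the 3 miRNAs most correlated with each expressed arm, its neighbours in rank, the most abundant marker of each list, and the most abundant, highest and lowest of the other imprinted miRNAs. Of the other markers, miR-133a-3p, miR-133b-3p, miR-145a-5p, miR-199a-5p, miR-206-3p, miR-214-3p, miR-223-3p and miR-499-5p were named after their values were seen.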

Additional observations from a re-analysis of the deposited data

Results flagged for a closer look

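Of 15 groups of values examined, 3 had a mouse far from the others by Dixon's criterion. All were low arms in which the other mice of the group had 0 counts, where any single count meets the criterion, so the usual chance rate of about 1 in 20 groups does not apply. For miR-483-3p these were C2 with 0.265 CPM after TMM normalization and L3 with 0.266 CPM, 2 counts each, and for miR-675-5p it was L3 with 0.133 CPM, 1 count. Each lies under the 3 counts taken as the floor.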

How the results depend on the processing

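The number of miRNAs past the adjusted threshold, 0, became 8 with DESeq2 and 22 without a filter, and 0 to 8 with each mouse left out (8 without L3, 1 without L1, 0 otherwise). The log2-fold change of miR-335-5p stayed negative in all 19 alternatives, from -0.51 to -0.26, with adjusted p from 0.153 to 0.706; leaving out each mouse gave -0.51 to -0.28. That of miR-335-3p was -0.0704 with library totals alone and 0.0058 with the replicate block, and ranged from -0.0116 to 0.17 with each mouse left out. Its difference in mean log2 CPM was -0.106 with library totals alone. The causes were not tested. For the 5p to 3p ratio the difference was -0.61 to -0.31 with each mouse left out, with exact permutation p from 0.0286 to 0.143. Same-numbered mice are different animals, and their deviations had a mean correlation of -0.190, negative in each of 3 pairs. With the replicate block, 0 miRNAs passed, miR-335-5p had -0.26 and the ratio difference was -0.26 (3 pairs, exact p = 0.5, and 3 pairs cannot give a p under 0.05). For arms under 32 counts, alternatives other than no filter gave no value. Exact permutation tests called 0 miRNAs under each prior count, with library totals alone and, chosen after seeing the data, without a filter. The smallest p they allow, 0.00794, leaves little room for a call after adjustment over 304 miRNAs. The smallest adjusted p was 0.329 in the main exact permutation test, so these counts of 0 do not measure stability. Depth limits statements on miR-483 and miR-675.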
